A study of Mus musculus with 43 samples.

Results

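Among lungs of bleomycin mice given nintedanib, the 8 libraries with the lowest level of Spry4 were set against the 8 with the highest, and all other genes were compared between these 2 sets. The lungs were selected on their Spry4 level alone. The 16 libraries came from 17 nintedanib libraries, whose middle one by Spry4 was left out, and from 43 libraries in all. The level that ranked them was the Spry4 count scaled to the total of a library's column (counts per 1000000, CPM). Every lung of both sets came from a mouse that had received bleomycin, which breaks DNA and causes lung fibrosis in rodents, and nintedanib, which blocks kinases. The labels name this treatment BLEO-IPF Nintedanib. The other libraries were 16 from bleomycin mice given the nintedanib vehicle (BLEO-IPF Nintedanib Vehicle) and 10 from control mice given a vehicle that is not named (CTRL Vehicle). RNA with polyA tails came from the inferior lobe. The sources used here give no dose, route, day, age, sex or strain. No label ties a library to a mouse or batch, so p-values reflect the variation among these libraries.

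Spry4 encodes a Sprouty protein, an inhibitor of signalling from receptor tyrosine kinases. Transcription of the gene is switched on by the kinase ERK, so that active receptors induce their own brake, and Spry4 RNA is used as a readout of ERK activity. Nintedanib inhibits the receptors for VEGF, FGF and PDGF, which signal through ERK. In the lung, VEGF receptors act mainly in endothelial cells, and PDGF and FGF receptors in fibroblasts and epithelium.

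In the low set, Spry4 (ENSMUSG00000024427, chromosome 18, 38586247 to 38601415, GRCm38) ranged from 11.1 to 14.7 CPM with a median of 13.1. In the high set it ranged from 17.4 to 34.1 CPM with a median of 19.5, so that the medians stood 1.49-fold apart. The last lung inside the low set had 14.7 CPM, the middle lung 14.9 CPM and the first lung inside the high set 17.4 CPM. These values chose the sets and are given without a test. Within the high set, 5 lungs lay between 17.4 and 19.7 CPM and 3 lungs stood at 28.4, 28.6 and 34.1 CPM. In the vehicle lungs Spry4 ran from 20.9 to 55.1 CPM with a median of 35.3, and in the control lungs from 21.9 to 36.2 CPM with a median of 27.6. Those 3 high lungs were the nintedanib lungs that reached the vehicle range, and the 8 low lungs lay below every vehicle and control lung.

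**Figure D1:**
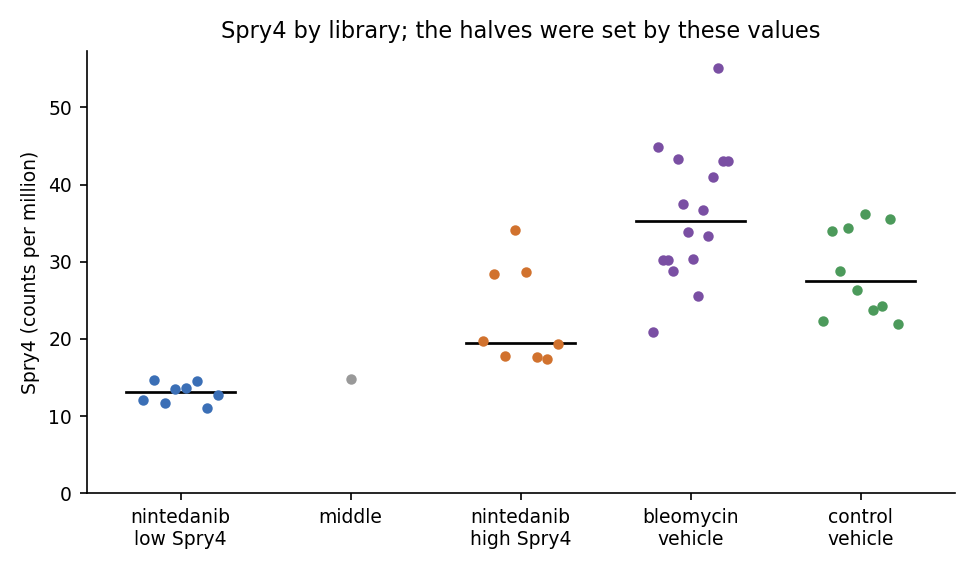
Spry4 level (CPM) for each library, by set of the nintedanib group, middle library, bleomycin vehicle and control vehicle; points are libraries and bars are group medians. The low set sits between 11.1 and 14.7 and the high set between 17.4 and 34.1, where 3 lungs overlap the vehicle lungs.

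Depth did not separate the sets, with 15951406 to 17986792 counts in the low lungs and 13686108 to 18723538 in the high ones. The library names fall into 3 number series whose meaning is not given. Each set had 6 libraries of the largest series, the other 2 low lungs were from the third series and the other 2 high lungs from the second, so that for those 4 lungs series and set cannot be told apart. Lung identity was clear in both sets, with Sftpc, the surfactant protein C gene of alveolar type 2 cells, at median levels of 24290 CPM (low) and 21680 CPM (high). The low lung named replicate 7 stood apart. Its summed level of 12 fat genes was 1691 CPM against 337 to 559 CPM in the other 7 low lungs, and its summed level of 14 heart muscle genes was 2326 CPM against 51.6 to 257 CPM. Replicate 8, which had the highest Spry4 of the nintedanib lungs, had 41880 CPM of alveolar type 2 genes, where the other 7 high lungs had 50930 to 72950 CPM. Replicate numbers are names only.

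No gene passed edgeR's test between low and high lungs, and Spry4 itself was not tested. With edgeR's quasi-likelihood F test and Benjamini-Hochberg adjustment, 0 of 14835 genes (0%) had an adjusted p under 0.05, and the smallest adjusted p was 0.354. At an unadjusted p under 0.05 there were 678 genes (4.57%), 398 with lower values in the low lungs (2.68%) and 280 with higher values (1.89%). Without each lung in turn, the number in either direction ran from 552 to 937 genes. List counts below from other fits have no share over all genes beside them unless one is given. DESeq2, the other tool run, called 13 genes (0.0876%), all 13 with lower values in the low lungs. The median 95% interval of a fold change, before any adjustment, reached 0.21 on the log2 scale to either side. Genes given below had larger differences and still did not pass adjustment over 14835 genes. The 0 calls therefore do not exclude differences above 0.21. The sets were formed from Spry4 in the same libraries, so these comparisons describe which genes varied with Spry4 among treated lungs. They do not compare treatments.

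The genes with the smallest p-values among those lower in the low set included a lipid kinase, a matrix gene and an ERK phosphatase. Dgkh, a diacylglycerol kinase (chromosome 14, 78558750 to 78732776), ranged from 34.3 to 42.8 CPM in the low lungs with a median of 38.1, and from 38.5 to 61.2 CPM in the high lungs with a median of 49.6. Its log2 fold change (low minus high, in all that follows) was -0.40 ± 0.07 (SE; edgeR p = 4.03e-05, adjusted p = 0.354). All 8 low lungs lay below the high median, and 4 of them below every high lung. Mfap2, which encodes a component of elastic microfibrils, had medians of 34.1 and 42.3 CPM, and 7 of 8 low lungs lay below every high lung. Its log2 fold change was -0.30 ± 0.06. Ctla2a, a gene for an inhibitor of cysteine proteases, ran from 13.4 to 17.4 CPM in the low lungs and from 18.4 to 33.4 CPM in the high lungs, with no overlap. Sema3f, a secreted guidance cue that binds neuropilins, had medians of 151 and 196 CPM. Socs5, a suppressor of cytokine signalling, had medians of 50.5 and 56.9 CPM, a difference of -0.20 ± 0.04 on the log2 scale.

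Separation of every lung was rare. In 2 of the 14835 genes (0.0135%) every low lung lay below every high lung, and in 3 (0.0202%) every low lung lay above. The former were Ctla2a and Gfpt2, a rate-limiting enzyme of hexosamine synthesis, and the latter were Zfp773, Ccdc93 and Ctps2. Gfpt2, Ccdc93 and Ctps2 are named here after their values were seen. Gfpt2 had 10.4 to 22.1 CPM in the low and 22.4 to 32.8 CPM in the high lungs, and its log2 fold change was -0.60 ± 0.13 (edgeR adjusted p = 0.627). In the vehicle lungs it had 7.43 to 23.4 CPM, so that the high nintedanib lungs lay at and above the top of the vehicle range.

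The 13 genes that DESeq2 called included the 6 with the smallest edgeR p among those lower in the low set, unnamed gene models left out. These 6 were Dgkh, Mfap2, Ctla2a, Sema3f, Socs5 and Dusp6. The others were Gfpt2, Smpd3, Pde4b, Ackr2, Ppp1r2, Medag and Dmbt1, all named after their values were seen. Pde4b, a phosphodiesterase that breaks down cyclic AMP, had medians of 80.5 CPM (low) and 132 CPM (high). Smpd3, a neutral sphingomyelinase, had medians of 10.5 and 25.1 CPM, the widest ratio of the 13 genes other than Dmbt1. Ackr2, a decoy receptor that takes up chemokines, had medians of 23.9 and 34.2 CPM. Dmbt1 was near 0 in both sets, with medians of 0.12 and 0.32 CPM and single lungs at 13.7 CPM (low) and 9.18 CPM (high). DESeq2 gave it a log2 fold change of -3.66 and edgeR -0.14 (edgeR p = 0.907), so this call rests on a few libraries.

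Fewer genes stood at the other end. Zfp773, a zinc finger gene, had 1.93 to 3.57 CPM in the low and 1.19 to 1.83 CPM in the high lungs. Its log2 fold change was 0.70 ± 0.17 (edgeR p = 0.000601, adjusted p = 0.662). Pik3ip1, which encodes an inhibitor of PI3 kinase, had medians of 43.6 CPM (low) and 32 CPM (high), and all 8 low lungs lay above the high median. Nipsnap1, a mitochondrial protein gene, had medians of 18.5 and 14.9 CPM. Pitpnm3, from the family of phosphatidylinositol transfer proteins, had medians of 119 and 103 CPM, and Cstf2t, a polyadenylation factor gene, 43.6 and 40.6 CPM. Zfp683, the gene for the transcription factor Hobit of tissue-resident lymphocytes, was low throughout, with medians of 0.75 CPM (low) and 0.26 CPM (high).

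The other targets and feedback genes of ERK were the first group of interest. Of the 22 listed genes tested, 4 had an unadjusted p under 0.05 with lower values in the low lungs and 0 with higher values, where 2.68% and 1.89% of all genes did. None passed adjustment, and the median log2 fold change was -0.10, against 0.00 over all genes. Within the largest number series, 6 lungs against 6, the count was 6 of 22. It was 3 of 22 with Spry4 as a continuous level over 17 lungs. There 4.07% of all genes had a positive slope at that threshold. Without each lung in turn the count was 3 to 4. The shares over all genes within the series and without each lung are not given. The 4 genes between the sets of 8 were Dusp6, Ier3, Phlda1 and Spry2. Dusp6, the phosphatase that dephosphorylates ERK and is induced by it (chromosome 10, 99263231 to 99267489), ran from 72.9 to 94.1 CPM in the low lungs with a median of 82.8. In the high lungs it ran from 81.9 to 154 CPM with a median of 117. All 8 low lungs lay below the high median, 4 lay below every high lung, and the 3 lungs with Spry4 above 28 CPM held the 3 highest Dusp6 levels of the nintedanib group, 134, 154 and 138 CPM. The log2 fold change was -0.51 ± 0.11 (edgeR p = 0.00027, adjusted p = 0.627). The low lungs lay below every vehicle lung (97.2 to 190 CPM) and every control lung (100 to 133 CPM). So did high replicates 5 and 15, at 96.4 and 81.9 CPM, and the middle lung, at 96.0 CPM.

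Ier3, an early response gene downstream of ERK, had medians of 114 CPM (low) and 148 CPM (high), a log2 fold change of -0.26 ± 0.08 and edgeR p = 0.00285. Spry2, a paralogue of Spry4, had 34.8 to 45.4 CPM in the low and 38.7 to 59.1 CPM in the high lungs, with a log2 fold change of -0.21 ± 0.10 (p = 0.047). The groups overlapped, although all 8 low lungs lay below the high median of 47.5 CPM. Phlda1, a growth factor response gene named after its values were seen, had medians of 22.6 and 30.4 CPM. Etv4 and Etv5 encode ETS factors that mark ERK activity. Etv4 had medians of 1.94 and 2.34 CPM with a log2 fold change of -0.33 ± 0.44 and an interval from -1.26 to 0.59, and Etv5, also named after its values were seen, had 245 CPM (low) and 224 CPM (high). Egr1, an immediate early target, had medians of 33.9 and 40.4 CPM with a low lung at 174 CPM, and its log2 fold change of 0.12 ± 0.45 had an interval from -0.84 to 1.08. Its spread between lungs was thus far wider than that of Dusp6.

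Among 22 immediate early and dissociation stress genes, 2 had an unadjusted p under 0.05 with lower values in the low lungs, against 2.68% of all genes. Within the largest number series the count was 10 of 22, with a median log2 fold change of -0.22. The share over all genes within that series is not given. Klf4, a zinc finger factor of endothelium and stressed cells, had medians of 111 CPM (low) and 144 CPM (high), a log2 fold change of -0.41 ± 0.12 and edgeR p = 0.00395. Socs3, the feedback inhibitor of cytokine receptors that act through STAT3, had medians of 79.2 and 117 CPM. The count was 6 of 22 without replicate 16, and 1 without replicate 4, 6, 7, 8, 10 or 15.

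**Figure D2:**
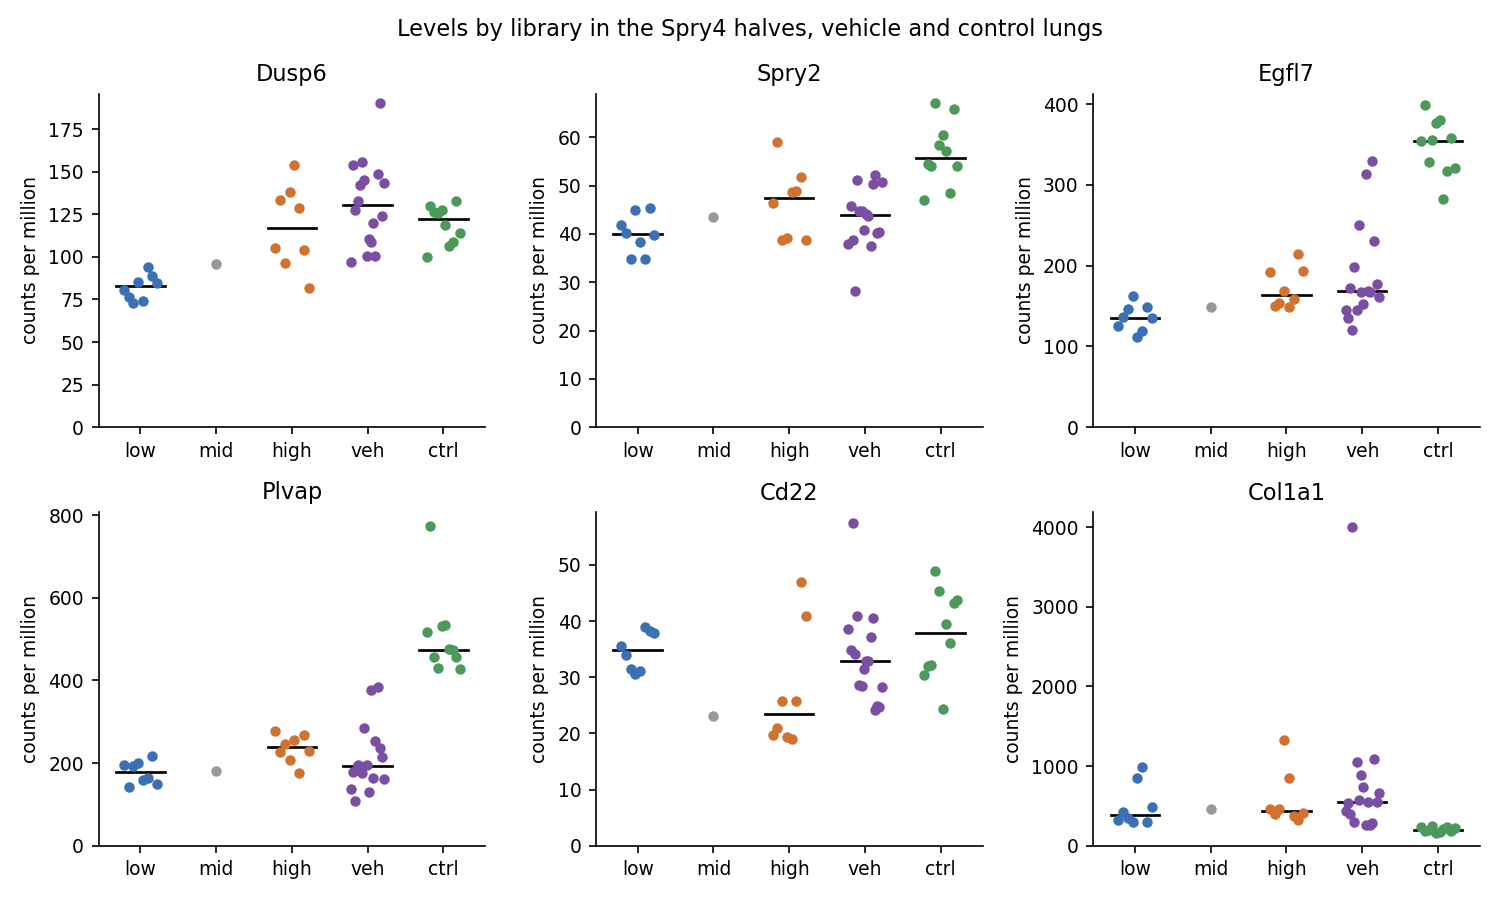
Levels (CPM) of Dusp6, Spry2, Egfl7, Plvap, Cd22 and Col1a1 by library in low, middle (mid) and high nintedanib lungs, bleomycin vehicle (veh) and control (ctrl) lungs; points are libraries and bars are group medians, on axes that start at 0. Dusp6 in the low lungs lies between 72.9 and 94.1, below every vehicle lung. The middle lung and some high lungs also have Dusp6 below every vehicle lung, while Col1a1 overlaps between the sets.

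When Spry4 entered as a continuous log2 level over all 17 nintedanib lungs, Dusp6 was the 1 gene of 14835 that passed (0.00674%). Its slope was 0.59 ± 0.09 log2 units per log2 unit of Spry4 (SE; edgeR adjusted p = 0.0355). This slope uses the libraries that the ranking used. Leaving out each lung in turn gave adjusted p-values from 0.0088 to 0.559, and 5 of the 17 fits kept Dusp6 under 0.05. With the pan-endothelial level as a covariate the change of Dusp6 per log2 unit fall of Spry4 was -0.55 with an adjusted p of 0.328, and between the sets it was -0.48.

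Of the 38 gene lists, the pan-endothelial one had the largest share of members with an unadjusted p under 0.05 between the 2 sets of 8. Within the largest number series the share was larger for B cell genes (10 of 13) and mesothelial genes (8 of 11) than for pan-endothelial ones (10 of 20). With Spry4 as a continuous level over 17 lungs it was 10 of 13 for B cell and 6 of 20 for pan-endothelial genes. There 3.57% of all genes had a negative and 4.07% a positive slope at that threshold. The share over all genes within the series is not given. Of 20 pan-endothelial genes, 12 had an unadjusted p under 0.05 with lower values in the low lungs and 0 with higher values. In addition, 19 of 20 fold changes were negative, with a median of -0.21. Of all 14835 genes, 2.68% were lower and 1.89% higher at that threshold, and 7160 were lower by sign alone. None passed adjustment over all genes. The summed level of the 20 genes was 4224 to 5395 CPM in the low lungs (median 4523) and 4848 to 6442 CPM in the high lungs (median 5527), so the ranges overlapped. It was 3577 to 7747 CPM in the vehicle lungs and 7424 to 9801 CPM in the control lungs, and both nintedanib sets lay below every control lung. In bulk RNA, fewer endothelial cells and less RNA per endothelial cell cannot be told apart, and the same holds for each cell type that follows.

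Egfl7, a secreted angiogenic factor of endothelium, had 111 to 162 CPM in the low and 149 to 215 CPM in the high lungs, and 7 of 8 low lungs lay below every high lung. Its log2 fold change was -0.34 ± 0.08 (edgeR p = 0.000826, adjusted p = 0.68). Sox7, an endothelial transcription factor, had medians of 48.6 CPM (low) and 72.3 CPM (high) and a log2 fold change of -0.44 ± 0.11. Pecam1, the adhesion molecule CD31, had medians of 620 and 726 CPM with a log2 fold change of -0.20 ± 0.08. Emcn was the 1 gene of the list with a positive value, and Emcn is named after its values were seen.

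The capillary genes had 6 of 18 at an unadjusted p under 0.05 with lower values in the low lungs, against 2.68% of all genes. At that threshold 0 had higher values, and the list median was -0.26. Plvap, which forms the diaphragms of endothelial fenestrae and caveolae, had 143 to 217 CPM in the low and 176 to 277 CPM in the high lungs, with a log2 fold change of -0.40 ± 0.10 (edgeR p = 0.000962). Gpihbp1, which anchors lipoprotein lipase to capillaries, had medians of 82.6 CPM (low) and 95.5 CPM (high). The capillary count was 3 of 18 for the 5 lowest against the 5 highest lungs and 2 with the continuous Spry4 level. It was 3 without replicate 1, 10 without replicate 9 or 16 and 11 without replicate 8. For the lymphatic list the count was 1 of 7, and Prox1, the master regulator of lymphatic fate, had medians of 5.15 CPM (low) and 3.06 CPM (high) with edgeR p = 0.169.

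The endothelial count moved with the libraries used. Leaving out each lung in turn gave 8 to 13 of 20 genes, and within the largest number series, 6 lungs against 6, it was 10 of 20. It was 9 without replicate 7 and 5 without the 1 low and 4 high lungs that had at least 1 CPM of Adipoq, a fat gene. It was 6 with Spry4 as a continuous level over 17 lungs, and 5 when all 43 libraries shared 1 estimate of spread. All of these calls had lower values in the low lungs. The median log2 fold change was -0.15 without the lungs with Adipoq and -0.25 within the largest series. Apart from the continuous level, the shares over all genes in these fits are not given.

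The VEGF-responsive and tip cell genes, which mark endothelium that answers to VEGF, had 3 of 22 at an unadjusted p under 0.05. All 3 had lower values in the low lungs, as did 2.68% of all genes at that threshold, and the list median was -0.17. Ptx3, a pentraxin of inflamed endothelium and stroma, had 0.25 to 3.39 CPM in the low and 0.58 to 5.77 CPM in the high lungs, where vehicle lungs had 2.66 to 14.2 CPM. Its log2 fold change was -0.77 ± 0.53 with edgeR p = 0.161. Apold1, an endothelial early response gene, had medians of 2.89 CPM (low) and 2.36 CPM (high) against 5.49 CPM in the vehicle lungs, and a log2 fold change of 0.13 ± 0.21. Nos2, the inducible nitric oxide synthase gene, had medians of 6.03 and 5.49 CPM against 16.1 CPM in the vehicle lungs. For these genes both sets had medians well below the vehicle median, and the sets overlapped. Replicate 8 held the highest level of the high set in all 4 of Ptx3 (5.77 CPM), Apold1 (4.56 CPM), Prox1 (7.90 CPM) and Nos2 (16.8 CPM).

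**Figure D3:**
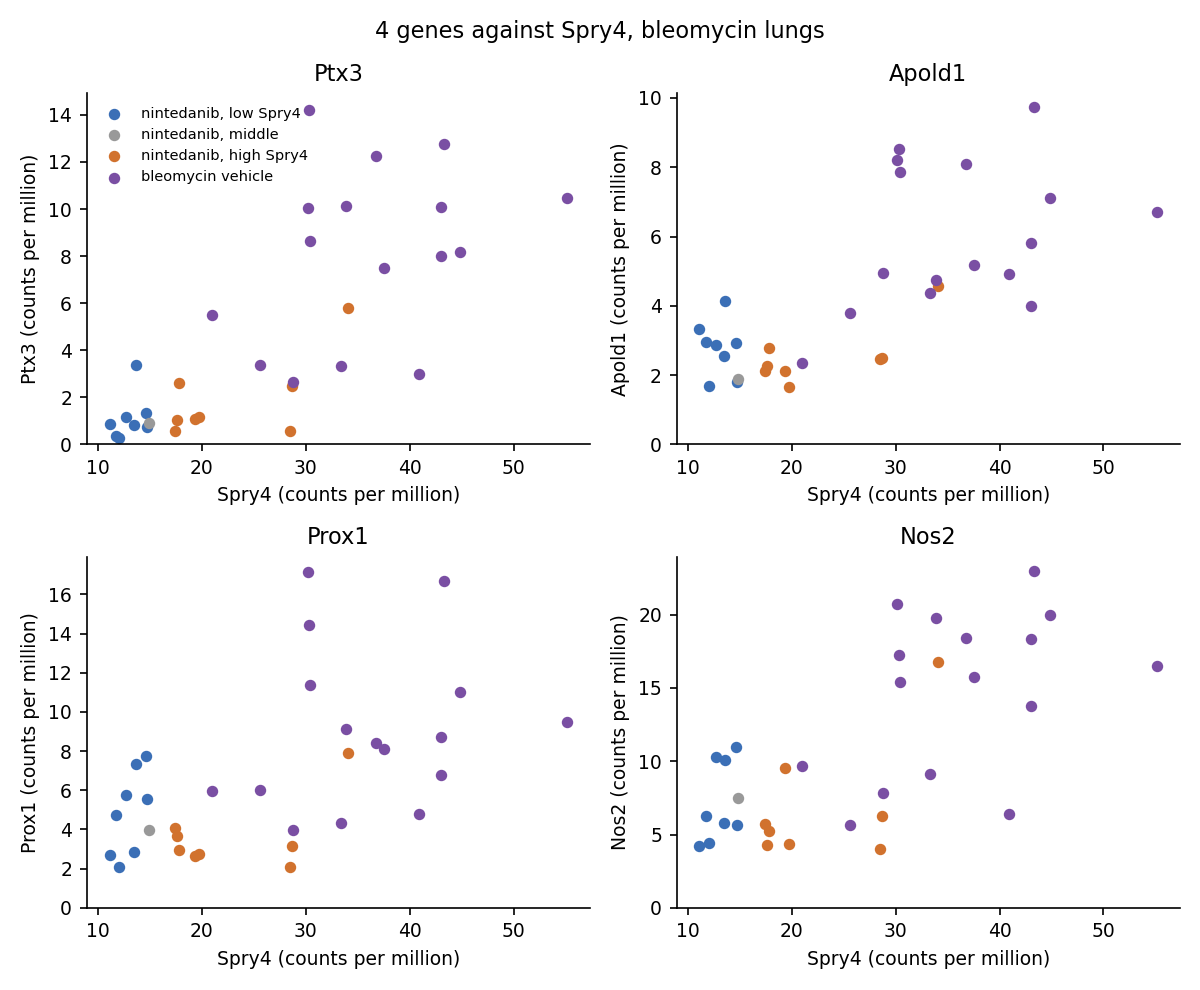
Ptx3, Apold1, Prox1 and Nos2 against Spry4, both in CPM, in the bleomycin lungs; points are libraries, coloured by nintedanib set, middle library and vehicle. The high lung at 34.1 CPM of Spry4 has the highest level of its set in all 4 genes, and the other high lungs overlap the low ones.

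Of 16 genes of the kinases that nintedanib blocks, 1 had an unadjusted p under 0.05 with lower values in the low lungs, a share near the 2.68% of all genes, and the median log2 fold change was -0.04. Without each lung in turn, 1 to 3 genes had lower values at that threshold and 0 to 2 had higher ones. The gene was Flt1, the VEGF receptor 1 gene, with 141 to 205 CPM in the low and 192 to 253 CPM in the high lungs and a log2 fold change of -0.30 ± 0.09 (edgeR p = 0.00268, adjusted p = 0.947). Kdr, the main signalling receptor for VEGF, had medians of 236 and 272 CPM with a log2 fold change of -0.19 ± 0.12 (p = 0.135). Pdgfra, which marks fibroblasts, had a log2 fold change of -0.22 ± 0.12, Pdgfrb, which marks pericytes, -0.08 ± 0.16, and Fgfr1 -0.07 ± 0.11. The interval of Fgfr1 ran from -0.30 to 0.17, which bounds any difference in its RNA. Among 15 ligand genes, Fgf2 was the 1 with an unadjusted p under 0.05, with medians of 24.8 CPM (low) and 29.5 CPM (high).

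None of 20 collagen genes had an unadjusted p under 0.05 between the sets, and their median log2 fold change was -0.06. Col1a1, the main chain of type I collagen, had 299 to 990 CPM in the low and 328 to 1322 CPM in the high lungs, with a log2 fold change of -0.19 ± 0.32 and an interval from -0.87 to 0.49. Col3a1 had medians of 957 CPM (low) and 906 CPM (high). Spp1, the osteopontin gene of profibrotic macrophages, had medians of 1178 and 1297 CPM and an interval from -0.71 to 0.59. For 28 genes of other matrix and crosslinking proteins the count was 2, both with lower values in the low lungs, against 2.68% of all genes. These were Timp1, an inhibitor of matrix metalloproteinases, with medians of 24.8 CPM (low) and 45.5 CPM (high; p = 0.0271, edgeR), and Lox, a collagen crosslinking enzyme (p = 0.0464). Ccn2, a matricellular target of TGF-beta, had medians of 98.7 and 142 CPM (edgeR p = 0.0367). Arg1, a macrophage arginase gene, had 3.39 to 18.4 CPM in the low and 4.01 to 63.7 CPM in the high lungs (edgeR p = 0.031). The matrix count was 0 of 28 without replicate 5, 8, 9, 10 or 16, 1 without replicate 4, 7 or 17, and 4 without replicate 1 or 14.

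The continuous Spry4 level gave larger counts for these lists than the sets, with positive slopes at an unadjusted p under 0.05 in 6 of 20 collagen, 8 of 28 matrix and 6 of 27 cell cycle genes, where 4.07% of all genes had such a slope. Without replicate 8, these counts were 0, 7 and 0. Over all genes, 715 to 1575 had a slope of either sign at that threshold when each lung was left out in turn. For the 5 lowest against the 5 highest lungs, 7 of 20 collagen, 8 of 28 matrix and 9 of 27 cell cycle genes had lower values in the low lungs at that threshold, with median log2 fold changes of -0.50, -0.49 and -0.66. The share over all genes in that setting is not given, so these counts have no background beside them. Between the sets of 8, 0 of 27 cell cycle genes had an unadjusted p under 0.05, and Mki67, the proliferation marker, had medians of 24.5 CPM (low) and 27.3 CPM (high).

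Genes of the mesothelium, the cell layer on the lung surface, had lower values in the low lungs in 11 of 11 cases. Their median log2 fold change was -0.38, and 4 had an unadjusted p under 0.05. Of all 14835 genes, 7160 had lower values in the low lungs, and 2.68% did at that threshold. Wt1, the transcription factor that marks mesothelium, had 2.82 to 11.3 CPM in the low and 6.18 to 14.7 CPM in the high lungs, and a log2 fold change of -0.74 ± 0.24 (edgeR p = 0.00616, adjusted p = 0.997). Muc16, a mesothelial mucin, had medians of 29.7 and 43.1 CPM. All 8 low lungs lay below the high median for both. The mesothelial count was 8 of 11 within the largest number series, 0 for the 5 lowest against the 5 highest lungs and 1 without the lungs with Adipoq. It was 9 without replicate 15. The shares over all genes under these settings are not given.

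Lymphoid and antigen-presenting cell genes had the opposite sign. Among 19 T and NK cell genes, 18 had higher values in the low lungs, 2 of them at an unadjusted p under 0.05, with a median of 0.39. Of all 14835 genes, 7675 had higher values in the low lungs, and 1.89% did at that threshold. Cd4 had medians of 9.28 CPM (low) and 5.84 CPM (high) and a log2 fold change of 0.76 ± 0.28 (edgeR p = 0.0132). Of 21 genes of dendritic cells and antigen presentation, 4 had an unadjusted p under 0.05 with higher values in the low lungs and 1 with lower values, against 1.89% and 2.68% of all genes. Cd83, a marker of mature dendritic cells, was among the former (log2 fold change 0.36 ± 0.14), and Zbtb46, a factor of classical dendritic cells that endothelium also expresses, was the latter (-0.27 ± 0.10). The T and NK count was 5 of 19 within the largest number series. Without replicate 14 it was 6 of 19, and without replicate 1, 2, 5, 10, 12, 13 or 17 it was 1. The count of 4 for the dendritic list was 1 without replicate 10, and 2 without replicate 2, 5, 12, 13 or 17. The shares over all genes in these fits are not given.

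Between the sets, 12 of 13 B and plasma cell genes had higher values in the low lungs, with a median log2 fold change of 0.35. At an unadjusted p under 0.05 the count was 1, where 1.89% of all genes had higher values. Cd22, an inhibitory receptor of B cells, had 30.5 to 39 CPM in the low lungs. In the high set, the 2 lungs from the second number series had 47.0 and 40.9 CPM and the other 6 had 18.9 to 25.8 CPM. Within the largest series, 6 lungs against 6, 10 of 13 genes had an unadjusted p under 0.05 with higher values in the low lungs, and the median was 0.89. The other 2 series hold lungs of 1 set each and give no value. Without replicate 14, from the second series, the count was 9 of 13, and it was 0 to 1 without each other lung, replicate 15 of the same series included. With the continuous Spry4 level over 17 lungs it was 10 of 13. It was 2 of 13 for the 5 lowest against the 5 highest lungs, and 2 without the lungs with Adipoq. Both settings also left out replicate 14, and both medians were 0.74. Among the fits without 1 lung, the count moved most without replicate 14. A part of the number series was not tested. Apart from the continuous level, the shares over all genes in these fits are not given. Ms4a1, the gene of CD20, named after its values were seen, had medians of 13.9 CPM (low) and 6.41 CPM (high), below the control lungs at 23.2 to 47.4 CPM.

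Neutrophil and acute inflammation genes had a median log2 fold change of -0.47. At an unadjusted p under 0.05 the count was 1 of 17, against 4.57% of all genes in either direction. The mean log2 CPM of this list had close medians, 2.771 (low) and 2.767 (high), while its highest values were 3.063 (low) and 4.423 (high). No gene of the ciliated (16), club and secretory (16), alveolar type 2 (20), heart muscle (13) or fat (11) lists had an unadjusted p under 0.05. The fat list had a median log2 fold change of 1.78 between the sets. That value rested on replicate 7, since it was -2.62 without this lung, with 7 of 11 genes lower in the low lungs at an unadjusted p under 0.05. The club and secretory count was then 7 of 16, also with lower values. The share over all genes without replicate 7 is not given. Adipoq, the adiponectin gene of fat cells, had 58.5 CPM in replicate 7 and at most 0.56 CPM in the other low lungs, while 4 high lungs had at least 1 CPM. Lungs with Adipoq thus stood in both sets, and their part in the other gene groups was not tested beyond the counts given without them.

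**Figure D4:**
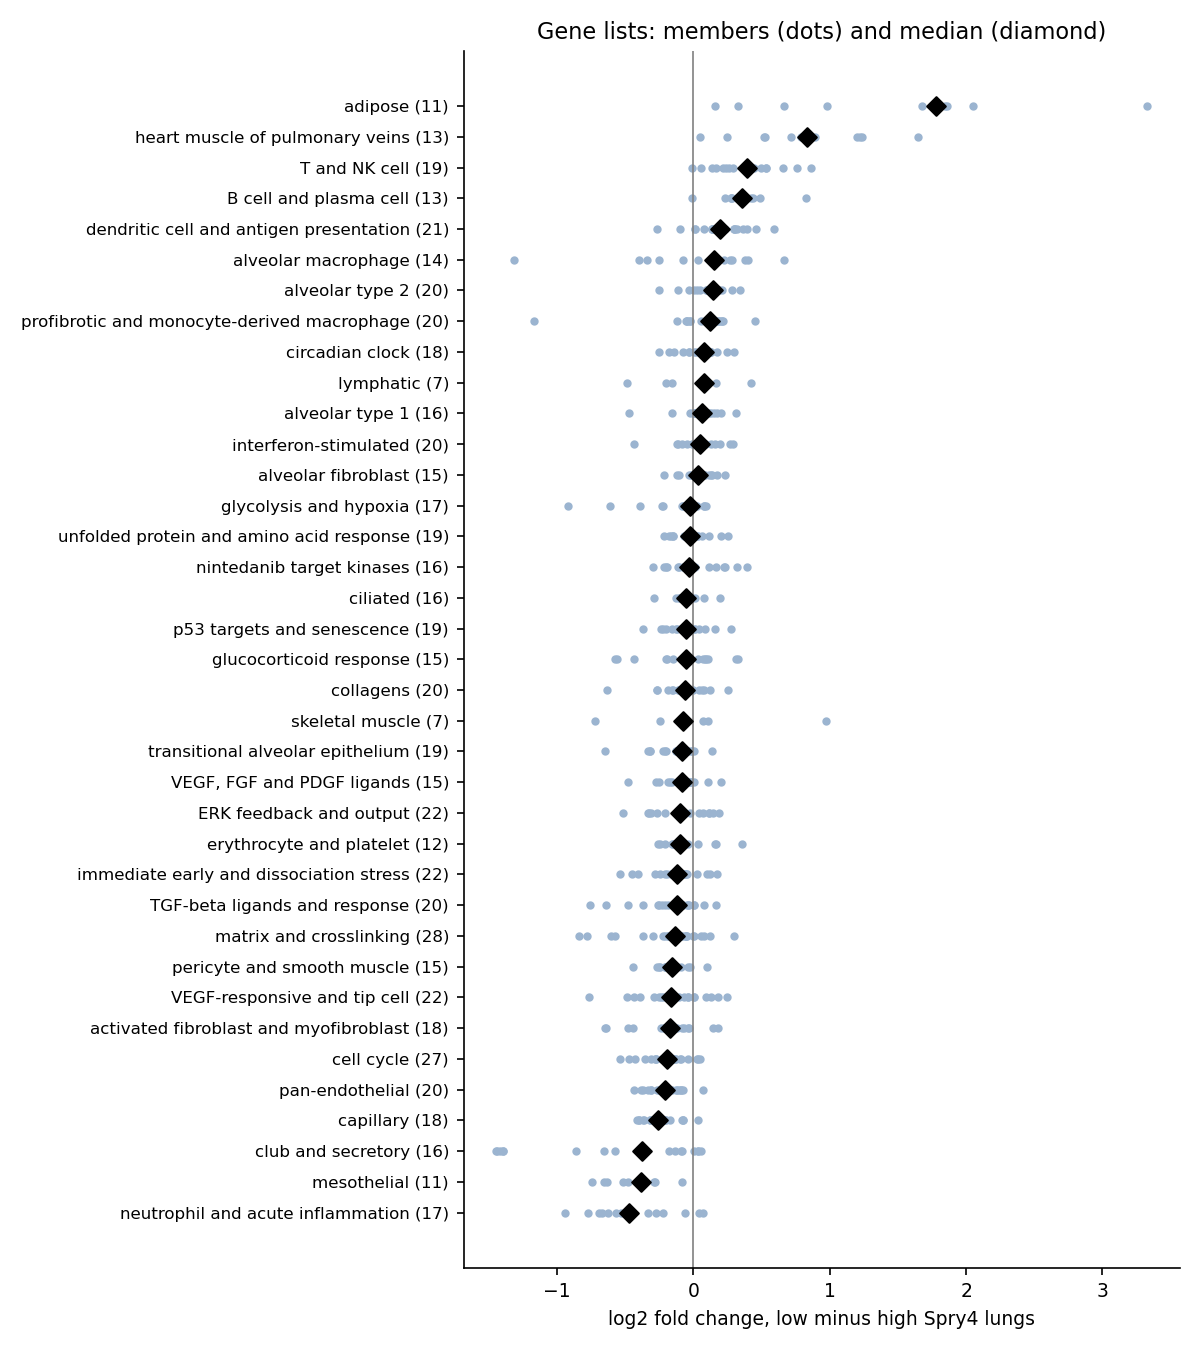
Log2 fold change (low minus high Spry4 lungs) of the tested genes of each list (dots) with the list median (diamond); the number of tested genes is in brackets. Most pan-endothelial and capillary genes and all mesothelial genes lie below 0, and most lymphoid genes above 0. Fat genes, with a median of 1.78, follow 1 low lung.

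The 16 vehicle lungs took no part in the ranking, and each gene's slope on Spry4 was tested in them independently of the sets. With edgeR and Benjamini-Hochberg adjustment, 1 of 14835 genes passed (0.00674%). At an unadjusted p under 0.05, 936 genes had a positive slope (6.31%) and 1288 a negative one (8.68%). DESeq2 called 131 of 14259 genes (0.919%). The gene that edgeR called was Gja5, the arterial endothelial connexin 40, named after its values were seen, with a slope of 1.25 ± 0.17 (adjusted p = 0.0125). In nintedanib lungs its slope was 0.49 ± 0.18. The difference of these slopes, -0.76 ± 0.27, had p = 0.00894 and an adjusted p of 0.912 (edgeR). Without vehicle replicate 14 no gene passed in the vehicle lungs, and without vehicle replicate 4 there were 14 genes. Within the largest number series 0 genes passed.

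Dusp6 followed Spry4 with close slopes in both groups. The slope was 0.58 ± 0.12 in the vehicle lungs (edgeR p = 0.000156, adjusted p = 0.115) and 0.59 ± 0.09 in the nintedanib lungs, and the interval of the difference ran from -0.30 to 0.32. Of the 22 ERK genes, 5 had a positive vehicle slope at an unadjusted p under 0.05 and 0 a negative one, against 6.31% and 8.68% of all genes. Spry2 had vehicle and nintedanib slopes of 0.21 ± 0.16 and 0.20 ± 0.10. Klf4 had 0.38 ± 0.17 and 0.45 ± 0.12, and Socs3 0.92 ± 0.23 and 0.56 ± 0.20. Ier3 had a vehicle slope of 0.04 ± 0.19, and its difference from the nintedanib slope, 0.20 ± 0.20, did not pass the test.

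For endothelium, 3 of 20 pan-endothelial genes had a positive vehicle slope at an unadjusted p under 0.05 and 0 a negative one, and for capillary genes both counts were 0 of 18. Of all genes, 6.31% had a positive vehicle slope at that threshold and 8.68% a negative one. Egfl7 had a vehicle slope of 0.11 ± 0.28, Sox7 -0.07 ± 0.26 and Plvap 0.21 ± 0.34. The nintedanib slopes of these 3 genes were 0.19 ± 0.11, 0.33 ± 0.14 and 0.29 ± 0.13, with smaller errors, and the differences of slopes for Egfl7 and Plvap had p-values of 0.782 and 0.845 (edgeR). For Sox7 the difference was 0.40 ± 0.29 (edgeR p = 0.177). Flt4, the VEGF receptor 3 gene of lymphatic and some blood endothelium, had slopes of 0.47 ± 0.13 in vehicle and 0.33 ± 0.09 in nintedanib lungs. Its fold change between the sets was -0.20 ± 0.11.

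Of the B cell genes, 10 of 13 had a negative slope at an unadjusted p under 0.05 in the vehicle lungs, against 8.68% of all genes, with a median of -1.26. In the nintedanib lungs 10 of 13 did, against 3.57% of all genes, with a median of -1.01, and none passed adjustment in either group. Cd22 had slopes of -0.53 ± 0.18 and -0.61 ± 0.15. In the vehicle lungs 13 of 16 ciliated and 9 of 16 club and secretory genes had a negative slope at an unadjusted p under 0.05, and in the nintedanib lungs 0 of 16 and 0 of 16. Of 19 genes of the transitional alveolar epithelium, an intermediate state of injured alveoli, 9 had a positive vehicle slope at that threshold, against 6.31% of all genes. In the nintedanib lungs 6 of 19 did, against 4.07% of all genes. Over all genes, 0 of 14835 slopes differed between the groups at an adjusted p under 0.05 (0%; smallest 0.912), and 671 (4.52%) at an unadjusted p under 0.05, so no gene's slope was shown to differ between treated and untreated lungs.

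**Figure D5:**
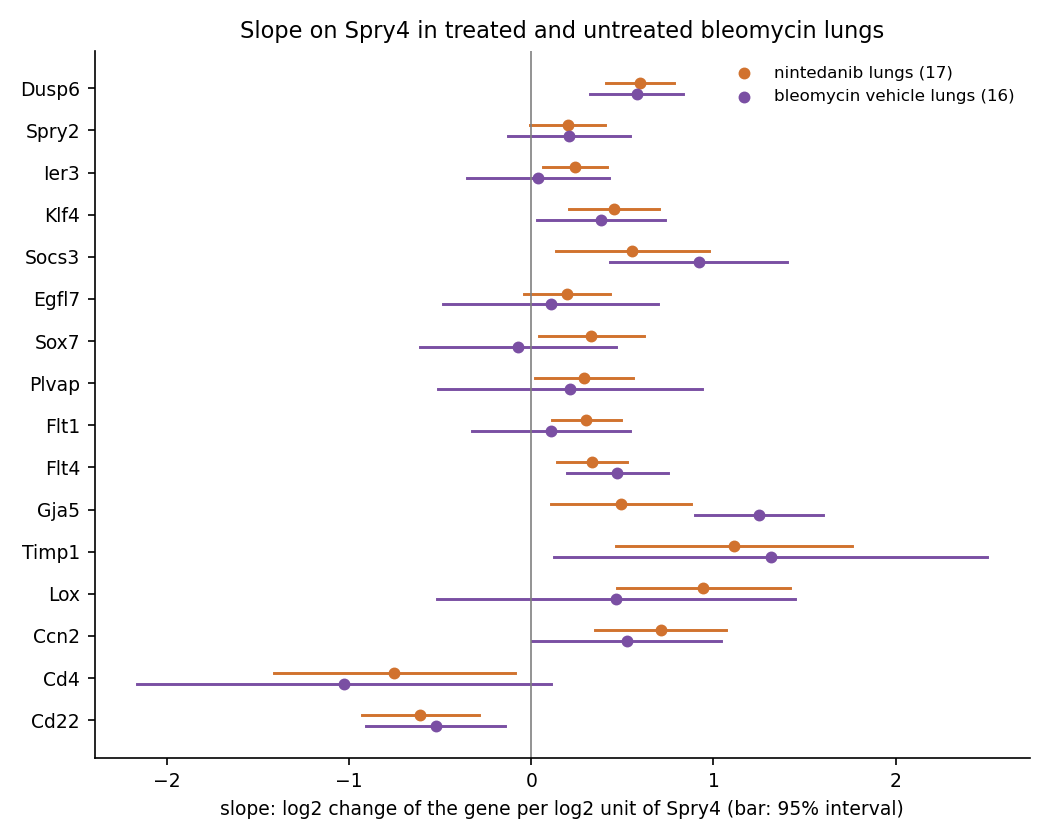
Slope of each gene on Spry4, in log2 units per log2 unit of Spry4, in nintedanib lungs and in bleomycin vehicle lungs, with 95% intervals; 0 is no relation. The intervals overlap between the groups for Dusp6 (0.59 and 0.58) and are apart for Gja5 (0.49 and 1.25), whose difference had an adjusted p of 0.912.

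The genes from the comparison of sets were also read in the vehicle lungs, which share no library with it. Of the 398 genes with an unadjusted p under 0.05 and lower values in the low lungs, 338 (84.9%) had a positive vehicle slope, and 113 (28.4%) had one at an unadjusted p under 0.05. Of all 7160 genes with lower values in the low lungs, 56.8% had a positive vehicle slope and 10.5% had one at that threshold. Of the 280 genes with higher values in the low lungs, 212 (75.7%) had a negative vehicle slope and 54 (19.3%) had one at that threshold, against 58.6% and 10.7% of all 7675 such genes. Genes within a library are not independent, so these shares are a description and carry no test.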

How the data were processed

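RNA was sequenced in 43 lung libraries. The authors deposited whole-number counts per gene, 1 column per library. STAR 2.7.0f, R 3.6.0 and the build GRCm38 were used, per the submitters' processing notes. The sources used here do not give the counting tool, its strand setting or the annotation, and overlapping or antisense genes may share reads. The table had 21938 genes, all protein-coding in GENCODE for GRCm38, with 13138281 to 19111457 counts per library.

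The 17 nintedanib libraries were ranked by Spry4 CPM on column totals, the 8 lowest and 8 highest forming the 2 sets. The members and the gene lists were chosen with earlier results of these data known. Genes passed edgeR's filterByExpr by the 3 label groups (minimum count 10, minimum total 15), which left 14835 besides Spry4 with 99.96% of counts. The fit was a two-sided quasi-likelihood F test in edgeR (TMM factors, robust dispersion) on the 16 libraries of the 2 sets, on the 16 vehicle libraries with log2 CPM of Spry4 as the term, or on both bleomycin groups with an interaction. P-values were adjusted by Benjamini-Hochberg over all tested genes at 0.05. SE is the fold change divided by the root of F. Levels in the text are CPM on column totals, log2 CPM of Spry4 used TMM factors and a prior count of 2, and intervals are 95% t intervals.

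Lists held 615 distinct genes in 38 lists, 601 tested, and were described by counts and medians. Named genes were the 6 with the smallest p in each direction, up to 2 per list with the smallest p, and 21 chosen genes. The 6 in each direction were taken after unnamed gene models and symbols held by more than 1 gene were left out. Other genes are marked where named. Alternatives were other scaling, DESeq2, no filter, all 43 libraries, continuous Spry4, 5 against 5 libraries, covariates, surrogate variables, 1 number series, and leaving out libraries. The continuous Spry4 level without each library, and with the pan-endothelial covariate, was added after seeing the data. The model was tested on simulated data. Versions were Python 3.11.15, Matplotlib 3.10.9, NumPy 2.4.6, pandas 2.3.3, DESeq2 1.42.0, edgeR 4.0.16, sva 3.50.0, limma 3.58.1 and R 4.3.3. No sequence is printed, since no result turned on one.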

Additional observations from a re-analysis of the deposited data

Results flagged for a closer look

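Among 136 groups of 8 lungs, made of the named genes in each set, 12 held a lung whose gap to the nearest other lung was large against the range of its set. For independent, normally distributed values chance gives such a gap in about 1 in 20 groups. CPM values need not be normal and the genes share lungs, so that rate may not hold here. Values are CPM, and numbers name libraries.

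Replicate 8 of the high set, the nintedanib lung with the most Spry4, was the highest of its set in 4 of the 12. It had 5.774 of Ptx3 (next 2.616), 4.559 of Apold1 (next 2.794), 7.902 of Prox1 (next 4.078) and 16.78 of Nos2 (next 9.562). In the same lung the capillary genes summed to 3478, where the other 7 high lungs had 4400 to 5908, and the alveolar type 1 genes to 11460 against 14370 to 16820. Interferon-stimulated genes summed to 823 against 430.7 to 670.2, and dendritic cell genes to 4263 against 2221 to 3568.

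Replicate 7 of the low set was the highest of its set in 3 genes. It had 58.46 of Adipoq (next 0.5638) and 149.3 of Fabp4 (next 22.18), which are genes of fat cells, and 1411 of Bpifa1 (next 11.89), a secretory gene of large airways. Its ciliated genes summed to 1422 against 524.1 to 944 in the other 7 low lungs, and its erythrocyte and platelet genes to 2758 against 954.9 to 1695.

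The other 5 were single genes in different lungs. In the low set, replicate 16 had 173.6 of Egr1 (next 58.04), replicate 12 had 3.385 of Ptx3 (next 1.346), and replicate 4 had 9.209 of Hlx, an endothelial and mesenchymal homeobox gene, the lowest (next 13.8). In the high set, replicate 14 had 33.42 of Ctla2a (next 24.99) and replicate 5 had 63.73 of Arg1 (next 30.03).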

How the results depend on the processing

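No paired analysis was possible because the labels give no replicate numbers shared between groups. Between the low and high sets, edgeR called 0 genes under the settings tried and in the fits without each library in turn (0 to 0; 552 to 937 at an unadjusted p under 0.05), except for the continuous Spry4 level. DESeq2 called 13 genes and the continuous level 1, and that count was 0 to 12 without each library, 12 without replicate 2. Ranking with TMM factors moved 2 libraries. The vehicle slope called 131 genes with DESeq2, 7 without a filter, 0 within the largest number series and 0 to 14 without each library. The difference of slopes stayed at 0 under its settings, DESeq2 included. The causes were not tested.

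The sign of a single gene turned in 58 cases, each 1 gene under 1 setting, and none of these values passed the threshold. As log2 fold changes, these were Adipoq -3.57 and Fabp4 -0.029 with DESeq2; Apold1 -0.089, Apln 0.11, Nos2 -0.29 and Col3a1 -0.19 with the continuous level; and Apln 0.10, Plxnd1 -0.036, Prox1 -0.017, Nos2 -0.39 and Col3a1 -0.28 for 5 lungs against 5. Nos2 was -0.014 with the library total as covariate, and Col3a1 -0.020 and Adipoq -0.83 with airway and fat covariates. With the pan-endothelial covariate they were Apold1 -0.066, Apln 0.14, Prox1 -0.042, Nos2 -0.39, Kdr 0.14, Pdgfra 0.017, Pdgfrb 0.0063, Col3a1 -0.17, Adipoq -0.74, Fabp4 -0.0034 and Pecam1 0.022. Spp1 was 0.038 with the collagen covariate and 0.093 with 2 surrogate variables, where Adipoq was -0.23. Within the largest series Egr1 was -0.59, Apold1 -0.030 and Col3a1 -0.018. Without the lungs with Adipoq, Etv4 was 0.19, Pdgfrb 0.0064, Col1a1 0.014, Mki67 0.087 and Bpifa1 0.53. Without each library in turn, values ran from -4.05 to 2.58 for Adipoq, -0.40 to 0.077 for Col1a1, -0.019 to 0.17 for Col3a1, -0.46 to 0.42 for Egr1, -0.63 to 0.025 for Etv4, -0.038 to 1.12 for Fabp4, -0.062 to 0.34 for Nos2 and -0.19 to 0.085 for Spp1.

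The median 95% interval of a fold change, 0.21 on the log2 scale to either side before adjustment, limits what these libraries can show. Larger differences also failed adjustment.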
